A study of Mus musculus with 4 samples.

Results

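Lef1, Tcf7, Tnfrsf19 and Apcdd1 are genes known to be switched on by canonical Wnt signalling, and their RNA was compared between the distal and the proximal nail matrix of the mouse. They were read by 6 probe sets of 45037 on each array, 3 for Apcdd1 and 1 for each of the other genes. A probe set is a group of short oligonucleotides that reads one transcript. The genes were found by their symbols in a fold change list deposited by the authors, which names 1435 probe sets. No probe set of that list carried one of these symbols together with that of another gene. The list keeps probe sets with a fold of at least 1.99 between the regions on these same arrays. The differences between regions given here are therefore descriptions of what chose the genes. No p-value of a single gene is given, and calls of the fit stand only as counts beside their share over all probe sets. In the authors' deposited table the lowest of the 6 folds was 1.99, for Apcdd1 probe set 1418382_at, which was 2nd from the lowest of the whole list. Probe sets under the cut-off carry no gene name here and their values could not be set beside it.

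The groups were 2 arrays of microdissected distal matrix and 2 arrays of microdissected proximal matrix, from mice aged 8 weeks. The labels describe both regions as intact and give no strain, genotype, sex or number of animals. They number the arrays of each region 1 and 2 without saying whether these came from separate animals, so the spread between them may be technical. The study is known for placing Wnt activation in the distal matrix, on evidence that is not examined here. The comparison asks only in which region the response genes had more RNA, and it does not test that claim.

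In canonical Wnt signalling a secreted Wnt ligand binds a Frizzled receptor and an LRP co-receptor, beta-catenin escapes breakdown, and it enters the nucleus. There it joins transcription factors of the TCF/LEF family, which sit on DNA and otherwise hold their targets down together with Groucho repressors. Several targets feed back on the pathway, since they encode its own transcription factors or its inhibitors. The nail matrix is the dividing epithelium that makes the nail plate, and Wnt signalling is known to be needed for nail formation.

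Median intensities of the distal arrays were 45.2 and 48.4, and those of the proximal arrays 55.7 and 41.6. The highest control probe set for a Bacillus subtilis gene, which mouse RNA should not light, reached 58.0 and 81.0 on distal arrays and 96.8 and 45.4 on proximal arrays, and serves here as the background of each array. All 4 arrays were above it for 22.6% of all probe sets. For Gapdh the 3' control probe set was 6.73 to 9.40 times as bright as the 5' one, with the proximal arrays between the distal ones, and for beta-actin 0.52 to 0.64 times. With 2 arrays per region, the precision of all values is limited by their number.

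Of the 4 genes, 3 had higher intensities in the proximal matrix (Lef1, Tcf7 and Tnfrsf19) and 1 in the distal matrix (Apcdd1, with all 3 of its probe sets). The 4 response genes thus did not share a direction. The regions did not overlap for 5 of the 6 probe sets, beside 34.7% of all probe sets and 74.1% of the authors' list. Over all probe sets 52% had a higher mean in the proximal matrix, and of the list 70.4% were higher in the proximal matrix in the authors' table. In the limma fit over all probe sets, 0 of the 6 were called after Benjamini-Hochberg adjustment (threshold 0.05), beside 0.0666% of all probe sets, and 3 of the 6 had an unadjusted p under 0.05, beside 5.09% of all. Nothing is read from these counts, because the genes were chosen by the same contrast. In these bulk samples, fewer cells of a type and less RNA per cell cannot be told apart.

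**Figure D1:**
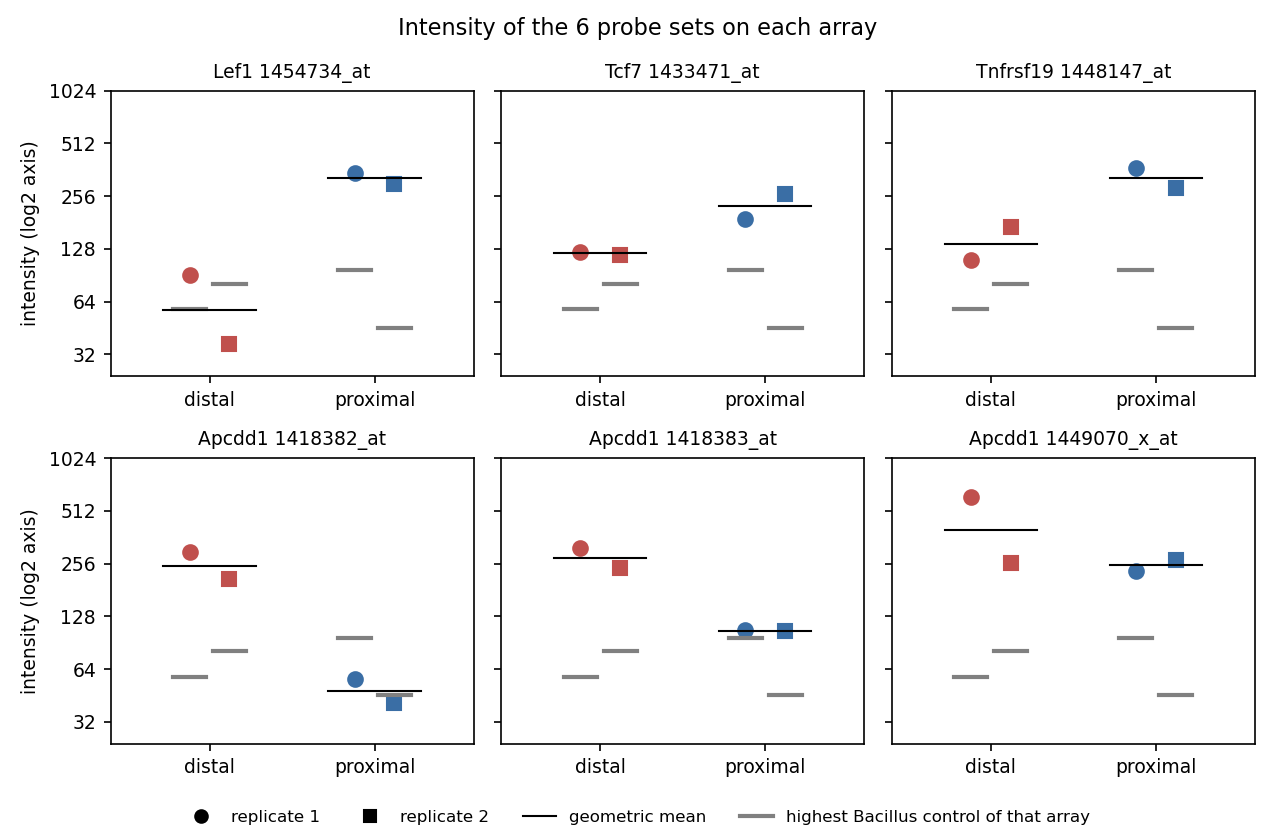
Intensity (log2 axis) of each of the 6 probe sets on the 2 distal arrays (red, left) and the 2 proximal arrays (blue, right), with the geometric mean of each region as a black line and the highest Bacillus subtilis control of each array as a grey line. Lef1 lies at 90.9 and 36.4 on distal arrays and at 346.2 and 300.7 on proximal arrays, while Apcdd1 probe sets 1418382_at and 1418383_at lie higher on both distal arrays than on either proximal array.

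Lef1 encodes a TCF/LEF transcription factor that carries beta-catenin to its target genes and is itself a Wnt target. Its probe set 1454734_at (Entrez gene 16842) had intensities of 90.9 and 36.4 on the distal arrays, against 346.2 and 300.7 on the proximal arrays. Both distal arrays were low, and distal replicate 2 was below its control background of 81.0, while the proximal arrays lay close together. The lower proximal value was 3.31-fold above the higher distal value. The distal arrays differed from each other 2.50-fold and the proximal arrays 1.15-fold.

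On the log2 scale the Lef1 difference, distal minus proximal, was -2.49 ± 0.76 (limma SE, n = 2 arrays per region), a 5.61-fold higher level in proximal matrix. It was -3.15 without distal replicate 1 and -1.83 without distal replicate 2, so its size followed which distal array was kept. In the authors' deposited table Lef1 was 4.39-fold higher in the proximal matrix, the widest of the 6 folds there.

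Tcf7 encodes TCF1, another factor of the same family and likewise a Wnt target. Its probe set 1433471_at (Entrez gene 21414) had intensities of 123.4 and 117.4 on the distal arrays, against 189.6 and 263.6 on the proximal arrays. All 4 values were above background and the regions did not overlap, but the gap was small: the lower proximal value was 1.54-fold above the higher distal value, and the proximal arrays differed from each other 1.39-fold. The difference was -0.89 ± 0.68 on the log2 scale (limma SE, n = 2 arrays per region), a 1.86-fold higher level in proximal matrix. The authors' deposited table gives 2.04-fold, also higher in the proximal matrix.

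Tnfrsf19 encodes TROY, a receptor of the tumour necrosis factor family that is known as a Wnt target and is expressed in skin appendages and in stem cells of the intestine. Its probe set 1448147_at (Entrez gene 29820) had intensities of 110.9 and 169.4 on the distal arrays, against 371.5 and 286.1 on the proximal arrays. Every value was above background, and both proximal arrays were higher than both distal arrays by 1.69-fold or more. The log2 difference was -1.25 ± 0.62 (limma SE, n = 2 arrays per region), a 2.38-fold higher level in proximal matrix, and 2.22-fold in the authors' deposited table.

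Apcdd1 encodes a membrane protein that binds Wnt ligands and LRP co-receptors and so inhibits the pathway, and it is induced by Wnt signals in turn. It is the gene of the 4 that was brighter in the distal matrix, and its 3 probe sets (Entrez gene 494504) differed in how far. Probe set 1418382_at had intensities of 297.2 and 208.8 on the distal arrays, against 56.1 and 40.9 on the proximal arrays. Both proximal values were below the control background, so the distal level was at least 3.76-fold higher, measured against that background, with a measured log2 difference of 2.38 ± 0.83 (limma SE, n = 2 arrays per region).

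Probe set 1418383_at of Apcdd1 had intensities of 314.4 and 241.6 on the distal arrays, against 106.3 and 105.5 on the proximal arrays. The proximal pair was nearly equal and lay above background, and the lower distal value was 2.27-fold above the higher proximal value. The log2 difference was 1.38 ± 0.67 (limma SE, n = 2 arrays per region), a 2.60-fold higher level in distal matrix.

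Probe set 1449070_x_at of Apcdd1 had intensities of 610.2 and 257.0 on the distal arrays, against 231.2 and 269.3 on the proximal arrays. Here the regions overlapped, because distal replicate 2 fell between the proximal arrays and distal replicate 1 alone stood out. The log2 difference was 0.67 ± 0.55 (limma SE, n = 2 arrays per region), and 0.04 without distal replicate 1. The x in its name is Affymetrix's mark for probes that can also bind transcripts of other genes, and whether this moved its values was not tested.

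The deposited intensities and the authors' log2 values placed the 3 Apcdd1 probe sets in opposite orders. The authors' deposited table has log2 differences (distal minus proximal) of 1.36 for 1449070_x_at, 1.35 for 1418383_at and 0.99 for 1418382_at. In the deposited intensities they were 0.67, 1.38 and 2.38 in the same order of probe sets. Of the 3, only 1418383_at had nearly the same value in both. Both sources have every Apcdd1 probe set higher in the distal matrix. The sources used here do not say how the authors' log2 values were summarised, and both sources rest on the same 4 arrays. Across the list, 98.6% of probe sets had the same direction in both sources, with a Pearson correlation of 0.849 between the 2 sets of differences across probe sets, which are not independent replicates.

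**Figure D2:**
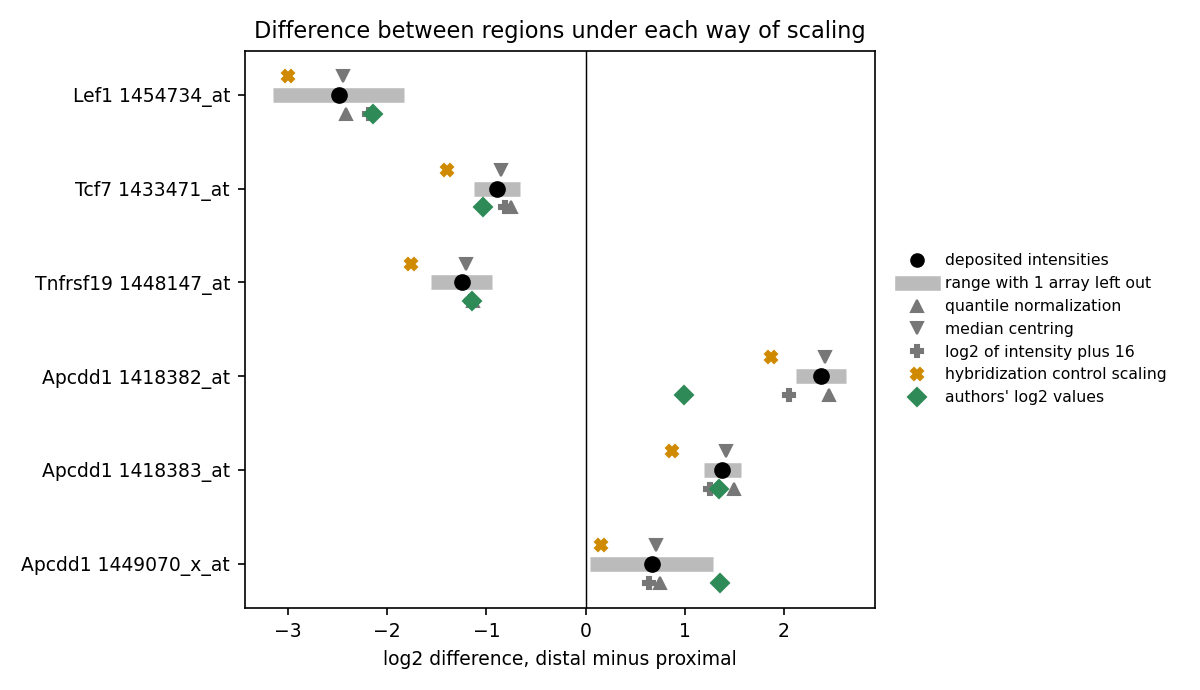
Log2 difference, distal minus proximal, for each of the 6 probe sets from the deposited intensities (black), with 1 array left out in turn (grey bar from lowest to highest) and under 5 other ways of obtaining the values. Lef1, Tcf7 and Tnfrsf19 stay left of 0 and the Apcdd1 probe sets right of it, with Apcdd1 1449070_x_at down to 0.04, and the authors' log2 values lie away from the black points for Apcdd1 1418382_at (0.99) and 1449070_x_at (1.36).

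No way of scaling turned the direction of any of the 6. Leaving out 1 array could turn only Apcdd1 1449070_x_at, where the regions overlap, and took it to 0.04. Scaling the arrays to the hybridization controls moved the median difference of all probe sets to -0.57, against -0.06 as deposited, and moved the 6 differences by the same amount. Relative to that shift they did not change. The shift lowers every difference, so it could not turn Lef1, Tcf7 or Tnfrsf19.

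Probe sets of this brightness varied between regions to a degree that gives the differences a scale. The mean intensities of the 6 were in the 8th and 9th of 10 equal classes of brightness. In the 8th class, 1.84% of probe sets differed between regions by more than Lef1 and 5.69% by more than the bound of Apcdd1 1418382_at. In the 9th class, 6.44% differed by more than Apcdd1 1418383_at, 8.77% by more than Tnfrsf19, 21.0% by more than Tcf7 and 34.2% by more than Apcdd1 1449070_x_at. The shares describe these arrays and are no test.

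**Figure D3:**
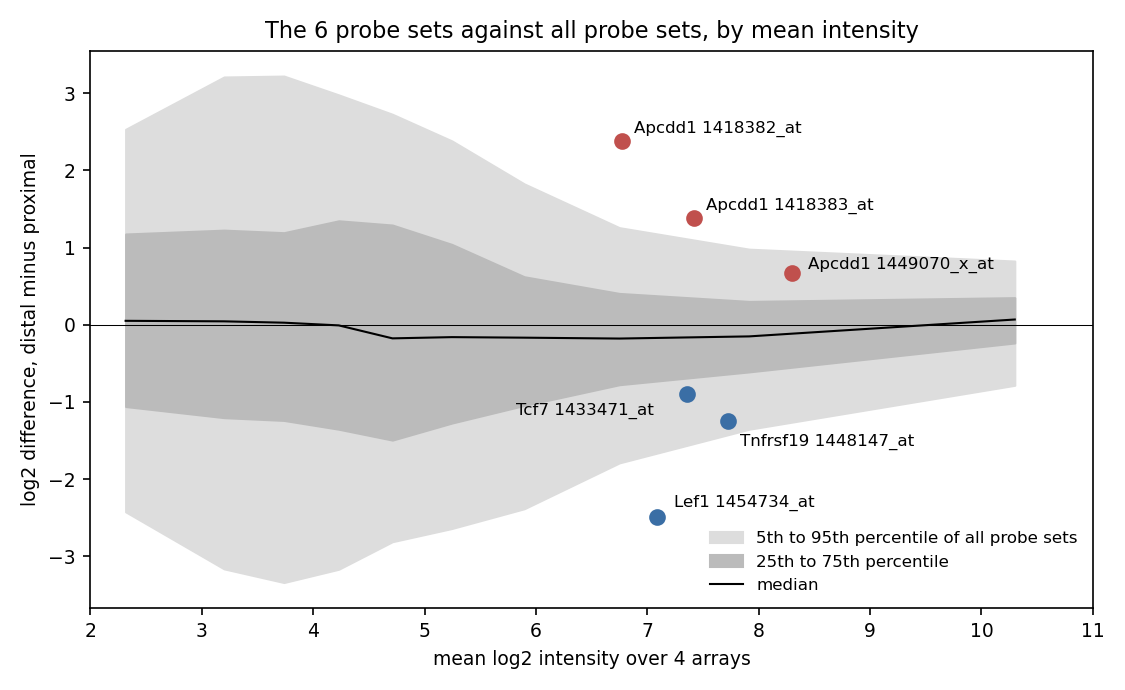
Log2 difference, distal minus proximal, against mean log2 intensity over the 4 arrays for the 6 probe sets (points), over the 5th to 95th percentile (light grey), the 25th to 75th percentile (dark grey) and the median (line) of all probe sets in 10 classes of brightness, joined at the class means. Lef1 (-2.49) lies below the light band and Apcdd1 1418382_at (2.38) and 1418383_at (1.38) above it, while Tcf7, Tnfrsf19 and Apcdd1 1449070_x_at lie inside it.

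Between arrays of one region, the 6 probe sets spread about as far as others of their brightness. The median probe set of the 8th class differed 1.78-fold between the distal arrays and 1.54-fold between the proximal arrays, and that of the 9th class 1.65-fold and 1.37-fold. Lef1 with 2.50-fold and Apcdd1 1449070_x_at with 2.37-fold were above these medians between the distal arrays, and the other 4 were below, with Tcf7 lowest at 1.05-fold. Between the proximal arrays Apcdd1 1418383_at had the smallest ratio of the 6, at 1.01-fold.

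Letters upstream of Lef1, Tcf7 and Tnfrsf19, the genes higher in proximal matrix, were read for the TCF/LEF motif. The promoter sequences used here have none for Apcdd1, so it was not searched. The search covered windows of 300 bases, from 250 before to 50 after each annotated start, in RefSeq's GRCm38.p6, on both strands, for CTTTGAA, the variant ending in T instead (CTTTGAT), and the same pair with T in the sixth place (CTTTGTA as well as CTTTGTT). The motifs cannot overlap each other on one strand. Lef1, Tcf7 and Tnfrsf19 had 8 such windows, of which 2 held a motif (25%), as did 16.9% of all 32851 windows. Both matches lay at starts inside the gene, and none of the windows at the outermost listed starts of Lef1, Tcf7 and Tnfrsf19 held these letters. The 250 bases before the outermost listed start and before the inner start with a match are printed for Lef1 and Tnfrsf19, 5′ to 3′ on the gene's strand, to show where the motif letters stand. Capitals mark the motif, here read on the opposite strand. The pieces are chr3:131110047-131110296 and chr3:131156044-131156293 on the plus strand for Lef1, and chr14:61046856-61047105 and chr14:61037988-61038237 on the minus strand for Tnfrsf19.
Lef1, outermost start: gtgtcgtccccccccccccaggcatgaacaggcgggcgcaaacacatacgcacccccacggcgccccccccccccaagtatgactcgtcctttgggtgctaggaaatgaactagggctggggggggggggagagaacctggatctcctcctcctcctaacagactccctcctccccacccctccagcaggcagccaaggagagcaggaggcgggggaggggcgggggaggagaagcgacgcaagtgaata
Lef1, inner start: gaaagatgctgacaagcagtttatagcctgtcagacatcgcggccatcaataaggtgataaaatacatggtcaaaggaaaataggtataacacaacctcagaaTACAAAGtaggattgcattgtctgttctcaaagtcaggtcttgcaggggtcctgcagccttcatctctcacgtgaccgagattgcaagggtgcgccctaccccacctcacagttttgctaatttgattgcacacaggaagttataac
Tnfrsf19, outermost start: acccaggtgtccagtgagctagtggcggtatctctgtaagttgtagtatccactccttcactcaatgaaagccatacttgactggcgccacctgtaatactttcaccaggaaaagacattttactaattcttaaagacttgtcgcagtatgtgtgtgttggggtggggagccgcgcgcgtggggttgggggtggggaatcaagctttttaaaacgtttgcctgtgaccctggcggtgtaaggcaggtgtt
Tnfrsf19, inner start: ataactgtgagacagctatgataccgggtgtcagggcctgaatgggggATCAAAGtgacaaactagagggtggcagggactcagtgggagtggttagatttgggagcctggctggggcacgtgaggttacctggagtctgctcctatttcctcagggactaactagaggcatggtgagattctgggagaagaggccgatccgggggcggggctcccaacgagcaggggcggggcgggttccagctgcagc

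The match at the inner start of Lef1 (CTTTGTA, held by 3.63% of all windows) begins 147 bases before that start, and the match at the inner start of Tnfrsf19 (CTTTGAT, held by 3.73%) begins 202 bases before it. The outermost window of Lef1 was 67.3% G and C and its inner window 43.7%. A match describes letters and shows no binding, and the probe sets do not tell from which start the RNA came.

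Partners of the TCF/LEF factors were looked up among the other genes of the pathway. The Wnt lists used here hold 107 symbols, one of them an older name of Tnfrsf19, and 13 of these are in the authors' list, 4 of them the genes above. Of the other 9, by the brightest listed probe set of each, 6 had higher intensities in the proximal and 3 in the distal matrix, and limma called 1, Dvl1 in the distal direction, in which it called 0.0533% of all probe sets, and 0 in the proximal direction. The call of Dvl1 ended under each other scaling and with 16 added before log2 (0.81 to 1.37). It also ended without a variance trend and among brighter probe sets only. Of the other fits with all 4 arrays, it held only with the replicate number as a block. With 1 array left out the Dvl1 difference lay between 0.92 and 1.73. The median log2 difference of the 9 was -1.14, beside -1.02 over the authors' list and -0.06 over all probe sets. They too were listed because of their fold on these arrays, so their counts are descriptions.

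Among nuclear partners, Tle4, a Groucho repressor that binds TCF/LEF factors, had intensities of 129.7 and 137.0 on the distal arrays, against 396.8 and 369.5 on the proximal arrays. Its arrays were nearly equal within each region and the regions were well apart, with a log2 difference of -1.52 ± 0.59 (limma SE, n = 2 arrays per region). The authors' deposited table has Tle4 5.78-fold higher in proximal matrix, where the deposited intensities gave 2.87-fold. Crebbp, a histone acetyltransferase that works with beta-catenin, had 145.6 and 10.8 on the distal arrays, against 221.1 and 370.7 on the proximal arrays. Its log2 difference of -2.85 rested on the second distal array, which was below background, and was -0.98 without it.

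Ctnnb1, the gene of beta-catenin itself, had intensities of 160.1 and 289.5 on the distal arrays, against 94.5 and 372.1 on the proximal arrays. The regions overlapped and the proximal arrays differed 3.94-fold from each other, with proximal replicate 1 just below background. The log2 difference was 0.20 ± 0.69 (limma SE, n = 2 arrays per region). It turned to -0.79 without proximal replicate 1, to -0.23 without distal replicate 2 and to -0.31 under scaling to the hybridization controls. The authors' deposited table has Ctnnb1 2.67-fold higher in proximal matrix, the opposite of the small difference in the deposited intensities.

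Of the 25 symbols listed as response genes, 2 besides the 4 were in the authors' list. Id2, an inhibitor of basic helix-loop-helix factors that responds to BMP as well as Wnt signals, had intensities of 335.7 and 343.0 on the distal arrays, against 571.4 and 942.0 on the proximal arrays, a log2 difference of -1.11. Tcf4, which here is the helix-loop-helix gene known as E2-2 and not Tcf7l2, had 117.3 and 72.5 on the distal arrays, against 254.9 and 161.5 on the proximal arrays, a log2 difference of -1.14. Both were higher on each proximal array than on either distal array, though Tcf4 was below background on distal replicate 2.

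The ligand gene Wnt5a (1.95) and the relay gene Dvl1 (1.32) had higher log2 intensities in the distal matrix. Without proximal replicate 1 or 2 the Wnt5a difference was 2.60 or 1.30. The receptor gene Ryk (-1.21) and the inhibitor gene Sfrp1 (-2.24) had higher log2 intensities in the proximal matrix. Ryk was below background on distal replicate 2, and its difference was -0.71 without that array. Sfrp1 was below background on distal replicate 1, and its difference was -0.51 without that array. Apcdd1, a membrane inhibitor of Wnt signals, and Sfrp1, a secreted one, thus lay on opposite sides. Whether Wnt5a or Ryk acted on the TCF/LEF factors here was not tested.

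**Figure D4:**
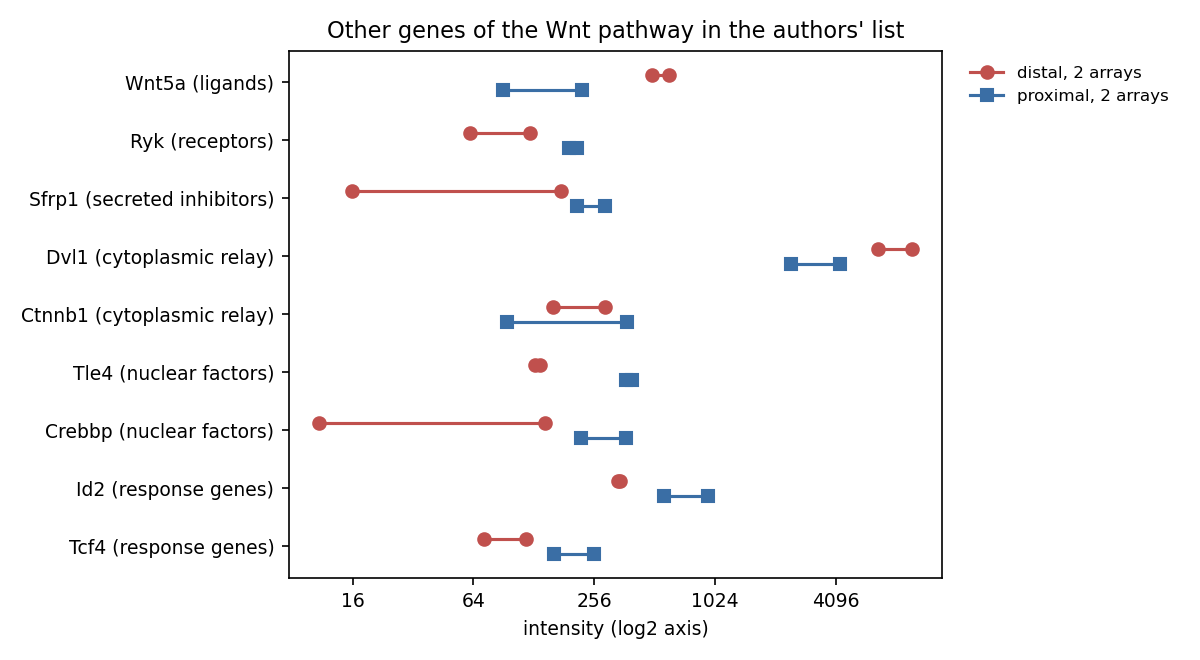
Intensity (log2 axis) of the 9 other Wnt pathway genes of the authors' list on the 2 distal arrays (red circles) and the 2 proximal arrays (blue squares), each pair joined by a line, grouped by role. The regions overlap for Ctnnb1 alone, where 74.1% of the authors' list and 34.7% of all probe sets do not overlap. The distal arrays of Sfrp1 and Crebbp lie far apart.

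A further 8 genes with a Wnt term in the gene ontology columns of the authors' deposited table, chosen after their values were seen, had 11 probe sets there, 9 with higher intensities in the proximal and 2 in the distal matrix, in a list of which 70.4% is higher in the proximal matrix. Sox4, an HMG box factor related to the TCF/LEF family, had 3 of them. Its brightest, 1433575_at, had 546.3 and 529.7 on the distal arrays, against 967.3 and 1134.7 on the proximal arrays, a log2 difference of -0.96 ± 0.38 (limma SE, n = 2 arrays per region). Lrp4, a receptor of the LRP family that dampens Wnt signals, had 47.0 and 114.0 on the distal arrays, against 376.2 and 364.1 on the proximal arrays, a log2 difference of -2.34. Its value on distal replicate 1 was below background, and the difference was -1.70 without that array and -2.98 without distal replicate 2. Nlk, a kinase that can phosphorylate TCF/LEF factors, had 95.5 and 331.2 on the distal arrays, against 65.2 and 96.8 on the proximal arrays. The regions overlapped, and Nlk was below background on proximal replicate 1.

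Markers of connective tissue were looked up in the authors' list. Lef1 is known to be expressed in mesenchyme under skin appendages as well as in their epithelium. Of 10 mesenchyme markers, 2 were in that list, Dcn and Itga8. Both had higher intensities in proximal matrix, in a list of which 70.4% is higher there. Their summed intensity was 252.2 and 351.0 on the distal arrays, against 1328 and 1557 on the proximal arrays. Neither Dcn nor Itga8 was at 0 on any array, though Itga8 was below background on both distal arrays. The other 8 markers are not analysed here. The part of mesenchyme in the differences of Lef1, Tcf7 and Tnfrsf19 was not tested.

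Of 18 markers of nail matrix keratinocytes, 7 were in the list, with summed intensities of 16700 and 20060 on the distal arrays, against 7772 and 8958 on the proximal arrays. The sums took the brightest listed probe set of each gene. For Krt42 this was 1439765_x_at, also marked x, with 8877.3 and 12309.8 on distal and 731.1 and 1414.8 on proximal arrays. Its other probe set, 1430208_at, had 1356.6 and 1771.0 against 270.2 and 401.7, so the size of the sums depends on this choice. Most of the distal sum came from Krt42 and Krt1, and Krt15, Krt17, Krt6a, Krt6b and Hoxc13 had higher means in proximal matrix (the mean of Krt6b turned to 0.20 and 0.65 without distal or proximal replicate 2). All of these except Krt6b were above background on all 4 arrays. Markers of endothelium, immune cells, pigment cells, Schwann cells, bone and Merkel cells had 0 genes in the list and are not analysed here.

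Genes whose 4 intensities ran most like those of each response gene were taken from 1072 named genes of the list with a mean above the median of all probe sets. Likeness was the root mean square distance of log2 intensities over the 4 arrays, each gene centred on its own mean. Nearest to Lef1 was Sec62 (distance 0.076), where the median gene lay at 1.16. Sec62 had 44.2 and 17.2 on the distal arrays, both below background, against 184.1 and 139.4 on the proximal arrays. Nearest to Tcf7 were Tgfbr1 (0.047) and Rrbp1 (0.081), with a median of 0.850. Tgfbr1, a TGF-beta receptor gene, had 538.1 and 518.2 on the distal arrays, against 900.0 and 1201.1 on the proximal arrays.

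Nearest to Tnfrsf19 were Hnrnpd (0.109) and Prei4, now Gpcpd1 (0.110), with a median of 0.902. Nearest to Apcdd1, by its brightest probe set 1449070_x_at, were Eprs (0.140) and Psmd11 (0.190), with a median of 1.12. Eprs and Psmd11 shared its high value on distal replicate 1. Eprs had 1186 and 449.1 on the distal arrays, against 350.2 and 424.3 on the proximal arrays. Of the Apcdd1 probe sets, 1449070_x_at is the one whose regions overlap, and the others were not compared. Likeness over 4 arrays is given as a description.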

How the data were processed

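Total RNA was labelled by amplification from the 3' end and hybridised to Affymetrix arrays, per the labels' protocols. The value table deposited by the authors holds linear intensity values per probe set; the sources used here do not give the scaling method. Per the file headers, the fold change list comes from a guided workflow for Mouse430_2 arrays with the distal matrix as control, and its fold (a ratio without sign, cut-off 1.99) stands beside the authors' log2 group values. Gene names come from that list, and Prei4 was updated through RefSeq by its gene identifier. Values were put on a log2 scale with a floor of 1. Without the 64 control probe sets, 45037 were fitted with limma 3.58.1 in R 4.3.3 (lmFit, eBayes with a variance trend, two-sided, Benjamini-Hochberg adjustment, threshold 0.05). A run on simulated data required only that mean estimates lay near the differences put in. The rate of false calls was not checked. A probe set counted as not above background in a region when neither array exceeded the highest of 27 Bacillus subtilis control probe sets, a rule chosen after the values were seen. Its fold is a bound against that control or its own higher signal, averaged over arrays on the log2 scale. The genes and lists were chosen with earlier results of these data known. Named were all probe sets of the 4 genes, the Wnt and cell marker genes present in the list, and the 2 nearest patterns per gene, of which 1 is not reported here. Alternatives were other scalings, 16 added before log2, no variance trend, brighter probe sets, the replicate number as a block and each array left out.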

Additional observations from a re-analysis of the deposited data

How the results depend on the processing

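The direction of all 6 probe sets was kept under every scaling and offset run and in the authors' log2 values. Of these 30 values, 24 moved by less than the spread between replicates (1 SD) and 6 by more. Leaving out 1 array cannot move a difference beyond that SD, and it cannot turn the 5 probe sets whose regions do not overlap. Adding 16 before log2 cannot turn those 5 either. Hybridization control scaling lowers every difference, so it cannot turn the 3 negative ones. Scaling to the hybridization controls gave -1.40 for Tcf7, -1.76 for Tnfrsf19, 1.87 for Apcdd1 1418382_at, 0.87 for Apcdd1 1418383_at and a median of -0.62 over the 6 (-0.11 as deposited), since it shifts all probe sets alike. That median, between 3 positive and 3 negative values, lay between -0.44 and 0.22 with 1 array left out. The authors' log2 values gave 0.99 for Apcdd1 1418382_at and 1.36 for Apcdd1 1449070_x_at, and the cause was not tested. The number of probe sets limma called over the whole array, 30, was 9 under quantile normalization, 8 under median centring, 12 under hybridization control scaling, 17 with 16 added, 2 among brighter probe sets, 0 without a variance trend (3010 at an unadjusted p under 0.05) and between 4 and 899 with 1 array left out. The cause of these changes was not tested. With the replicate number as a block it was 90 and the 6 differences are the same by construction, but same-numbered arrays did not deviate together (correlation -0.007 across probe sets) and share only a number. In the fits with all 4 arrays, which called between 0 and 90 of all probe sets, limma called 0 of the 6. Calls of the 6 with 1 array left out are not given, because 1 region then has a lone array. Without distal replicate 1 the Lef1 difference was -3.15. That fit rests on a lone distal array below background, assumed to vary like the proximal pair, in the contrast that chose the gene. Signal limits Lef1 on distal replicate 2 and Apcdd1 1418382_at on both proximal arrays, which were below the control background.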
